A study of Mus musculus with 12 samples.

Results

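The liver secretes peptides and glycoproteins, termed hepatokines, that act on lipid and glucose handling in other organs. Transcripts of 9 such genes were followed in livers with and without hepatocyte Marchf6: Enho, Fgf21, Gdf15, Inhbe, Angptl8, Angptl4, Lect2, Fetub and Ahsg. They are 9 of the 54232 genes in the count table, were picked by name as liver-derived metabolic hormones, and all 9 were among the 17509 genes with enough reads to be tested. The pick was made with the difference between genotypes in these livers already known, so that difference is described here for each gene, with its standard error, and carries no test.

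Poly(A) RNA was sequenced from the livers of 6 Marchf6 LKO mice, in which Albumin-Cre deletes a floxed Marchf6 exon in hepatocytes, and of 6 control littermates that carry the floxed allele without Cre and are labelled wildtype (WT). All 12 were males on a C57Bl/6J background, fed chow, and were killed at 10 weeks of age after 4 h without food, and each mouse gave 1 library. The deletion is directed at hepatocytes, and the state of Marchf6 in other cells of the liver was not measured here. Marchf6 encodes a ubiquitin ligase of the endoplasmic reticulum membrane. Depth was 14860414 to 22111926 counted reads per liver. Levels below are CPM, read counts divided by library size after TMM scaling. The count over the whole Marchf6 gene (March6 in the annotation) was 226 to 247 CPM in WT and 204 to 248.9 CPM in LKO livers, and since it takes in the exons that remain after Cre, it is no check of the deletion. The library numbers in the table run through all WT livers before any LKO liver, so an effect of library order and the genotype cannot be told apart. No 2 libraries had identical counts.

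Hepatokine genes are known to answer to different signals. Fgf21 is raised by PPARA in fasting and by ATF4 in amino acid and endoplasmic reticulum stress, and Gdf15 is a general stress cytokine. Angptl8 follows insulin and feeding, Angptl4 is a PPAR target, and hepatic Enho, which encodes the peptide adropin, is tied to nutrient intake and to the ROR and REV-ERB receptors of the clock. The fetuins (Ahsg, Fetub) and Lect2 are hepatocyte products carried in plasma.

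Stretches of the promoters are shown because they differ among the members in a feature that the expression values did not use. RefSeq windows (GRCm38.p6) from 250 bases before to 50 bases after the start were at hand for 7 of the 9 genes, with a pair of windows each for Fetub and Gdf15, and none for Enho and Angptl4. The letters TGATGNAA, which is the C/EBP-ATF composite element, were found on either strand in the windows of 3 of these 7 genes, Fgf21, Angptl8 and Inhbe, and in 4.0% of 32851 mouse promoter windows of the same length. Capitals mark this element, read as TGATGCAA or its reverse complement, and in Fgf21 also the E-box CACGTG. The 250 bases before the start are given for Fgf21 (chr7:45615491-45615740, minus strand) and Angptl8 (chr9:21835260-21835509, plus strand), and 30 bases around the element for Inhbe (chr10:127352011-127352040, minus strand), whose window reaches into an annotated Inhbe exon.
Fgf21: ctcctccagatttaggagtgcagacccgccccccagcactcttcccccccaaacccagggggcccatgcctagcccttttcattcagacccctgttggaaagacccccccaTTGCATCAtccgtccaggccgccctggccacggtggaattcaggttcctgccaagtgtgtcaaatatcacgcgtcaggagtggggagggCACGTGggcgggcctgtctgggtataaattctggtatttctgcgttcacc
Angptl8: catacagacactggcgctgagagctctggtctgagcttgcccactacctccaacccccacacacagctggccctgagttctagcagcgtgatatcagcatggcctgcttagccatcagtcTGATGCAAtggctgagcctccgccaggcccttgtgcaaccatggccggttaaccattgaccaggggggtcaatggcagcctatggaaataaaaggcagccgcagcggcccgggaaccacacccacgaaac
Inhbe: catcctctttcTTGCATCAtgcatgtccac
The element began at base -139 from the start in Fgf21, at -130 in Angptl8 and at -181 in Inhbe. CACGTG was present for 2 of the 7 genes, at -50 in Fgf21 and at -83 from 1 start of Gdf15, against 7.2% of all windows. The nuclear receptor half-site AGGTCA was present for 1, at -55 from the other start of Gdf15, against 16.3% of all windows, and the cAMP response core TGACGT for 0 of 7, against 7.5%. None of the 4 motifs overlapped another in these windows. The shares are per window, whereas a gene with a pair of windows was counted if either held the motif, so the units differ. A match of letters does not show that a factor binds there.

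Enho had the lowest level in LKO relative to WT among the 9 genes. The gene (ENSMUSG00000028445) lies on the minus strand at chr4:41638144-41640324 (GRCm38). In WT livers 1 to 6 its level was 13.3, 7.59, 2.48, 10.1, 10.0 and 18.1 CPM, from 39 to 282 reads. In LKO livers 1 to 6 it was 1.40, 2.35, 2.37, 1.82, 0.903 and 1.84 CPM, from 21 to 41 reads. The groups did not overlap, but they nearly touched: WT liver 3 stood just above LKO liver 3, while the next WT liver, at 7.59 CPM, was 3.21-fold above the highest LKO liver. With libraries scaled by their total counts alone, WT liver 3 (2.36 CPM) fell below LKO liver 3 (2.44 CPM) and the groups overlapped.

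On average Enho went from 10.3 ± 5.27 CPM in WT to 1.78 ± 0.563 CPM in LKO livers (SD, n = 6 per group). Its log2 fold change was -2.55 with a standard error of 0.37, so that 0.171 of the WT level was left. Without WT liver 3 the WT mean was 11.8 ± 4.07 CPM (SD, n = 5) and the log2 fold change -2.75. Over 19 alternative fits, which changed the scaling, the filter or the test or left out a liver, it ran from -2.75 to -2.31. Of all genes tested, 75 passed an adjusted p of 0.05 in the edgeR fit, which is 0.428%, with 48 higher (0.274%) and 27 lower (0.154%) in LKO. Enho was the only member among them, and the only member whose groups did not overlap, as was the case for 228 genes (1.30%), 97 of them lower in LKO (0.554%). Since the genes were chosen with this contrast known, nothing is read from that count. The tested gene just inside the calling threshold was Rdh16 (adjusted p = 0.0485), and of the members Lect2 came nearest from outside (adjusted p = 0.16).

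**Figure D1:**
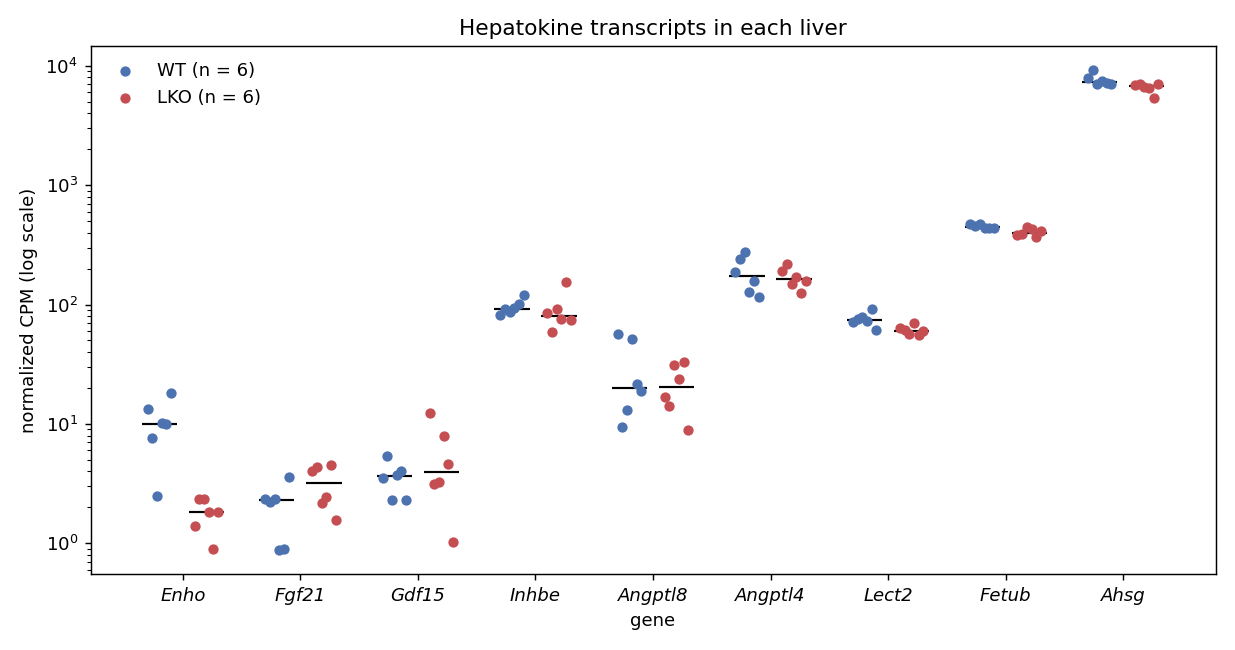
Normalized CPM (log scale) of the 9 hepatokine genes in each of 6 WT (blue) and 6 LKO (red) livers, with a bar at each group's median. Enho separates by genotype except for WT liver 3 at 2.48 CPM, which sits beside the highest LKO liver, and the other 8 genes overlap.

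Overlap with other annotated genes is small at this locus. At its 3′ end Enho shares 15 exonic bases, 1.2% of its exon length, with Dnaic1, an axonemal dynein gene on the opposite strand that had 0 to 6 reads per liver, and its span crosses the antisense gene Gm12406 with no shared exonic base. The strand setting of the counting is not given in the sources used here, so reads in those 15 bases cannot be assigned to a strand. Dnaic1 had a log2 fold change of -1.60 (SE 0.51) and did not pass (adjusted p = 0.22). The 10 nearest tested genes, 5 on each side, were Nudt2, AI464131, Gm12404, Fam219a and Dnaic1 on the side of lower coordinates and Cntfr, Il11ra1, Rpp25l, Dctn3 and Galt on the other, and none of the 10 passed, with adjusted p-values from 0.22 to 0.997. Apart from Dnaic1 their log2 fold changes lay between -0.09 and 0.30, the latter for Il11ra1, the interleukin receptor subunit.

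Fgf21, the endocrine fibroblast growth factor that signals through Fgfr1 and the co-receptor Klb, was a low transcript in both genotypes. Its level was 0.875, 2.29 and 3.60 CPM in WT livers (lowest, median, highest) and 1.57, 3.22 and 4.56 CPM in LKO livers. LKO livers 1, 2 and 5 exceeded all 6 WT livers, and the other 3 lay inside the WT range. The log2 fold change was 0.65 with a standard error of 0.34, from 13 to 106 reads per liver, and stayed between 0.48 and 0.89 over the alternative fits.

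Gdf15 and Inhbe belong to the TGF-β superfamily: GDF15 curbs appetite through GFRAL in the hindbrain, and Inhbe encodes the activin βE subunit, whose product acts on adipose tissue. Gdf15 ranged over 2.29, 3.65 and 5.36 CPM in WT (lowest, median, highest) and over 1.03, 3.94 and 12.5 CPM in LKO livers. The LKO group held both the lowest and the highest of the 12 livers, with LKO liver 1 at the top. The log2 fold change of Gdf15 was 0.62 (SE 0.43), and 0.17 without that liver.

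Inhbe was a far more abundant transcript, at 81.0, 92.7 and 119.7 CPM in WT and 58.8, 80.2 and 154.8 CPM in LKO livers. LKO liver 5 was highest of all 12, while the other 5 LKO livers lay below the WT median. The log2 fold change of Inhbe was -0.09 (SE 0.18), moving to -0.31 without LKO liver 5 and to 0.01 without LKO liver 2, so its sign depended on single livers.

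Angptl4 and Angptl8 restrain lipoprotein lipase, Angptl4 in the fasted and Angptl8 in the fed state. Angptl8 was among the most variable members, with 9.42, 20.1 and 57.1 CPM in WT and 8.81, 20.4 and 32.9 CPM in LKO livers (lowest, median, highest). WT livers 1 and 4 were high, at 57.1 and 51.7 CPM, and the medians of the genotypes were nearly equal. The log2 fold change of Angptl8 was -0.42 (SE 0.43), and -0.10 without WT liver 1. Its gene lies within an intron of Dock6 on the opposite strand and shares no exonic base with it.

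Angptl4 was at 116, 172 and 275 CPM in WT and 124, 164 and 218 CPM in LKO livers. The LKO values all lay inside the WT range. The log2 fold change of Angptl4 was -0.13 (SE 0.20) and turned to 0.02 without WT liver 3, the WT liver with the highest Angptl4 and the lowest Enho.

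The genes of the 3 plasma proteins Ahsg, Fetub and Lect2 were the steadiest members, and all 3 had a lower mean in LKO livers. Ahsg (fetuin-A, a plasma carrier of calcium phosphate that also inhibits the insulin receptor) was at 7038, 7384.5 and 9233 CPM in WT and 5412, 6756 and 7102 CPM in LKO livers, with LKO livers 2 and 6 inside the WT range. Fetub, its relative among the cystatin-like proteins, was at 436, 449.7 and 472 CPM in WT and 366, 399 and 451 CPM in LKO livers, and LKO liver 3 was the only LKO liver inside the WT range. Lect2, a chemotactic protein that binds Met and Tie1, was at 61.6, 74.1 and 91.4 CPM in WT and 55.1, 60.4 and 70.3 CPM in LKO livers. The overlap in Lect2 came from WT liver 6, since the other 5 WT livers were above every LKO liver.

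The log2 fold changes of these genes were small, at -0.22 (SE 0.090) for Ahsg, -0.16 (SE 0.063) for Fetub and -0.31 (SE 0.088) for Lect2, and kept their sign in all 19 alternative fits. Ahsg shares 62 exonic bases, 2.8% of its exon length, with the antisense gene Gm30505. Hepatocyte markers moved with them: 6 of 7 had a negative log2 fold change, none passed the test, and their summed level was 94500 to 112000 CPM in WT and 85400 to 93800 CPM in LKO livers, with albumin 75.6% of that sum. Kupffer cell markers went the other way, 6 of 6 with a positive log2 fold change and a summed 81.7 to 109 CPM in WT against 105 to 178 CPM in LKO livers, and none passed. Of the stellate cell markers 6 of 6 and of the endothelial markers 4 of 5 were also positive, with none past the test. The endothelial median was only 0.04, and the highest value, 0.77, was that of Lyve1. Of all tested genes 50% had a positive log2 fold change. In bulk liver, fewer cells of a type and less RNA per cell cannot be told apart, and the part of cell composition in these differences was not tested.

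Markers of rarer cells were low in both genotypes. The summed B cell markers were at 0.647 to 1.21 CPM in WT and 1.26 to 2.19 CPM in LKO livers, with 4 of 4 positive. The neutrophil genes S100a8 and S100a9 together were at 0.0524 to 0.484 CPM in WT and 0.645 to 3.95 CPM in LKO livers, and Ly6g and Cxcr2 had too few reads to be tested. Cholangiocyte markers summed to 7.42 to 19.3 CPM in WT and 7.69 to 14.9 CPM in LKO livers, T cell markers to 0.207 to 0.826 CPM and 0.279 to 0.757 CPM. Of 5 adipocyte markers 1, Cfd, could be tested, at 0.129 to 0.740 CPM in WT and 0.114 to 0.651 CPM in LKO livers, and Lep had no read. None of these markers passed, and their part in the hepatokine values was not tested.

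**Figure D2:**
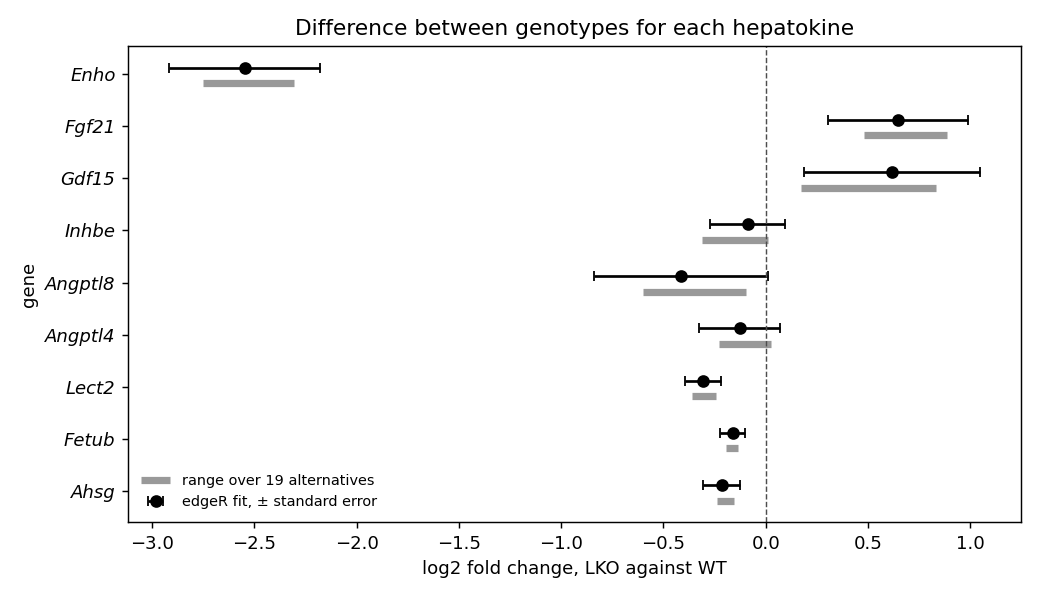
Log2 fold change of LKO against WT for each hepatokine gene from the edgeR fit (points, with the standard error as bars; 6 livers per group) and its range over 19 alternative fits (grey). Enho lies at -2.55, the other 8 between -0.42 and 0.65, and the grey ranges of Angptl4 and Inhbe reach across 0.

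Compared per kilobase of exon, the 9 transcripts spanned a wide range of levels. In WT livers the mean was 3490 RPKM (reads normalized for exon length and library size) for Ahsg, 231 for Fetub, 82.0 for Lect2, 51.8 for Angptl4, 33.1 for Angptl8 and 18.01 for Inhbe. Enho followed at 8.09 RPKM, Fgf21 at 2.16 RPKM and Gdf15 at 1.92 RPKM. The ranges over 6 WT livers did not overlap between Ahsg and Fetub, Fetub and Lect2, or Inhbe and Enho, and overlapped for every other pair of neighbours in this order. In LKO livers Enho was last, at 1.40 ± 0.444 RPKM (SD, n = 6), below Gdf15 at 2.92 ± 2.24 RPKM and Fgf21 at 3.35 ± 1.34 RPKM, and its range of 0.712 to 1.87 RPKM overlapped theirs. The other 6 genes kept their order.

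**Figure D3:**
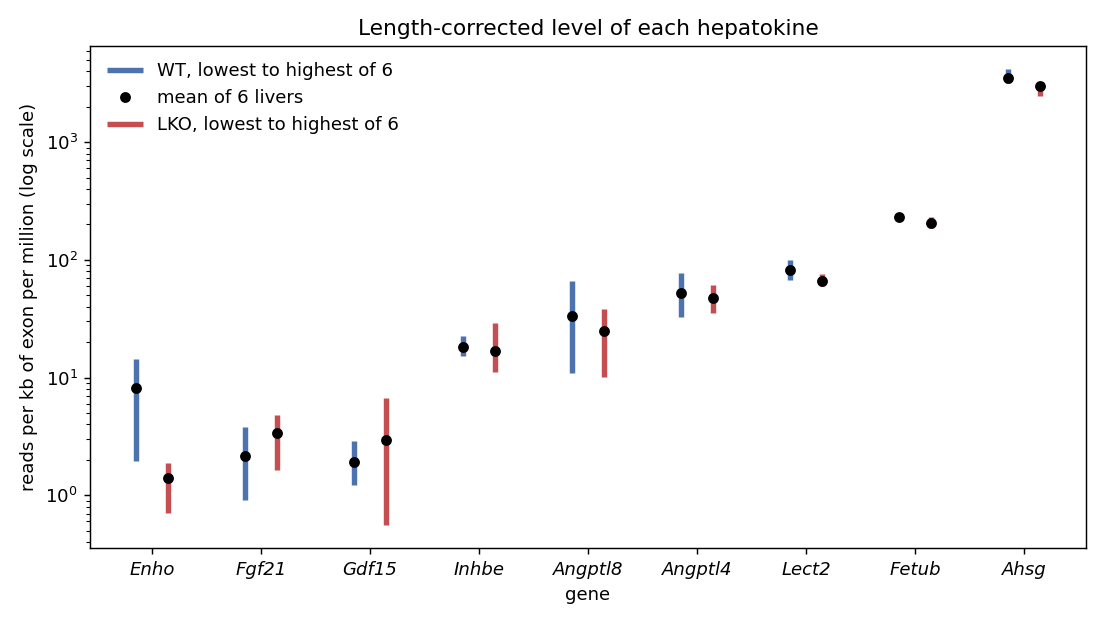
Length-corrected level (RPKM, log scale) of each gene, as the mean (points) and the lowest to highest value (bars) of 6 WT and 6 LKO livers. Ahsg averages 3490 RPKM in WT livers, and Enho moves from the third lowest mean in WT to the lowest in LKO, at 1.40 RPKM.

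Variation between livers of the same genotype set the members apart as well. The within-group SD of log2 CPM was 0.087 for Fetub, 0.15 for Ahsg and 0.16 for Lect2, against 0.94 for Gdf15, 0.90 for Angptl8, 0.79 for Enho and 0.73 for Fgf21. Fetub was at the 5.28 percentile of all tested genes in this SD, while Gdf15, Angptl8, Enho and Fgf21 were at the 92.0, 91.3, 87.8 and 85.6 percentiles. The low read numbers of Fgf21, Gdf15 and Enho add counting error to their spread, whereas Angptl8 had 160 to 827 reads per liver.

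Whether hepatokines rose and fell together between livers of a genotype was asked with log2 CPM after subtracting the group means, over 12 livers and all 36 pairs (two-sided permutation test within groups). No pair passed after Benjamini-Hochberg adjustment over the 36 pairs, and 2 had an unadjusted p under 0.05. Ahsg and Inhbe had r = -0.713 (permutation p = 0.0151, adjusted p = 0.27) and rho = -0.692 (permutation p = 0.0158), and r = -0.686 without LKO liver 5 and WT liver 2. It was -0.396 without LKO liver 5 alone (permutation p = 0.223) and -0.887 without WT liver 2 alone (permutation p = 0.00573, adjusted p = 0.116). The size of this r thus depended on single livers. Within groups this r was -0.405 in WT and -0.924 in LKO livers. Angptl4 and Inhbe had r = -0.631 (permutation p = 0.00406, adjusted p = 0.146) and rho = -0.678 (permutation p = 0.0165), with r = -0.638 without WT livers 3 and 6, -0.695 within WT and -0.871 within LKO livers. Over all 12 livers Enho had no pair with an unadjusted p under 0.05. Its coefficients with the other 8 members ran from -0.486 for Angptl4 to 0.275 for Ahsg. Without WT liver 3 and LKO liver 5 they ran from -0.625 for Lect2 to 0.338 for Fgf21, and that for Ahsg was -0.579. The value for Angptl4 hung on single livers, at -0.725 without LKO liver 5 (permutation p = 0.0295, adjusted p = 0.532) and -0.0729 without WT liver 3, and its sign differed between WT (-0.803) and LKO livers (0.579), a difference that was not tested. Angptl4 and Ahsg, at r = 0.522 over 12 livers, had 0.827 without WT liver 3 (permutation p = 0.00245, adjusted p = 0.0882).

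**Figure D4:**
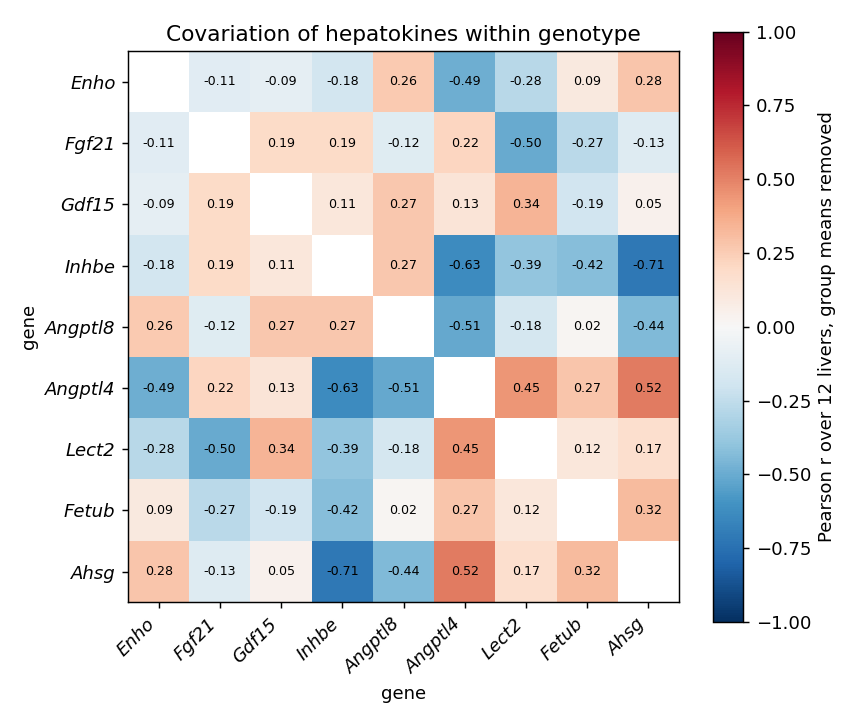
Pearson r between the 9 genes in log2 CPM over 12 livers with group means removed, on a colour scale from -1 to 1. Over all 12 livers the coefficients farthest from 0 are those of Inhbe with Ahsg (-0.71) and with Angptl4 (-0.63). The former is -0.396 without LKO liver 5 alone and -0.887 without WT liver 2 alone. None of the 36 passed the adjustment.

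Among 12774 tested genes with a mean of at least 1 CPM, the liver-to-liver pattern of Enho within genotypes was most like those of Cyp7b1, the oxysterol hydroxylase (r = 0.958 over 12 livers), C6, a terminal complement component (r = 0.957), Nr1h5, a farnesoid X receptor paralog (r = 0.926), Mup20 (r = 0.920) and C8a, another terminal complement component (r = 0.910). It was most opposite to Pcx, pyruvate carboxylase (r = -0.925), Rdh16, a retinol dehydrogenase (r = -0.920), Ugt1a5 (r = -0.913), Cyp2c38 (r = -0.912) and St3gal5, the GM3 synthase (r = -0.906). These are descriptions of 12 shared libraries, and the coefficients were nearer to 0 without WT liver 3 and LKO liver 5, whose Enho lay farthest from the median after group means were removed. Without them r was 0.849 for Cyp7b1, 0.810 for C6, 0.819 for Nr1h5 and -0.806 for Pcx, but 0.568 for C8a and -0.573 for Cyp2c38. Mup20, Ugt1a5 and Cyp2c38 have near-identical paralogs or share exons with them, so their counts are uncertain.

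Of these 10 genes, Rdh16 alone passed the test between genotypes, with 83.1 ± 36.9 CPM in WT and 171 ± 30.8 CPM in LKO livers (SD, n = 6). Its log2 fold change was 1.04 (SE 0.21, adjusted p = 0.0485). Cyp7b1 was at 413 ± 157 CPM in WT and 205 ± 64.03 CPM in LKO livers, and its log2 fold change of -1.01 (SE 0.30) did not pass (adjusted p = 0.18). It passed without WT liver 3 (adjusted p = 0.0125) and in none of the other 18 alternative fits.

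Further hepatokine genes, listed by function, were mostly not called. Of 24 genes 23 could be tested, and 1 fell and 0 rose. Of all tested genes 0.154% were called lower and 0.274% higher in LKO. In the list 17 of 23 log2 fold changes were negative, with a median of -0.10, beside a median of 0.00016 over all genes. The gene that fell was Rarres2, which encodes the adipokine chemerin, with 151 ± 11.4 CPM in WT and 114 ± 11.5 CPM in LKO livers (SD, n = 6) and no overlap between the groups. Its log2 fold change was -0.41 (SE 0.076, adjusted p = 0.027), and the call was lost in 8 of the 12 fits that each left out a liver (WT 1, 2, 4 and 5 and LKO 1, 2, 5 and 6), with adjusted p-values up to 0.0784. Selenop, the selenium transport protein, was next with -0.20 (SE 0.067, adjusted p = 0.23) and Inhba, the activin βA subunit, with -0.64 (SE 0.23, adjusted p = 0.26).

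Receptors and targets of the hepatokines were read in 19 of 22 genes, and 1 rose and 0 fell, with a median log2 fold change of -0.02. The shares over all tested genes were 0.274% higher and 0.154% lower. This list and that of further hepatokines were chosen with earlier results of these data known, so nothing is read from their counts. Lpl, the lipase that Angptl4 and Angptl8 restrain, was at 28.5 ± 6.57 CPM in WT and 67.5 ± 25.9 CPM in LKO livers (SD, n = 6), without overlap, and its log2 fold change was 1.24 (SE 0.22, adjusted p = 0.0207). The call was lost without WT liver 4 (adjusted p = 0.0578), without WT liver 5 (0.0698) and without LKO liver 3 (0.0547). Fgfr1, the main receptor of FGF21, had a log2 fold change of -0.97 (SE 0.21, adjusted p = 0.0676) and passed without WT liver 3 (adjusted p = 0.00627). Irs1, the insulin receptor substrate, had -0.43 (SE 0.098, adjusted p = 0.0797). Gfral, the receptor of GDF15, had no read in any liver.

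Genes that report on the signals behind hepatokine expression gave no call in any of 4 lists. At the share of calls over all tested genes, 0.428%, lists this short would seldom hold a call. Nothing about these signals is therefore read from the counts. In the PPARA list 0 of 16 passed and 12 had a positive log2 fold change (median 0.22), with the lowest p for Vnn1, a pantetheinase (1.12, SE 0.32, adjusted p = 0.17), and Pdk4, the pyruvate dehydrogenase kinase (1.06, SE 0.38, adjusted p = 0.28). In the list of ATF4 and the integrated stress response 16 of 18 were tested and 0 passed, with 8 positive and 8 negative (median -0.0048), among them Nupr1 (0.89, SE 0.28, adjusted p = 0.21) and Shmt2 (-0.20, SE 0.074, adjusted p = 0.29). In the list of insulin, LXR and ChREBP regulators and targets 0 of 16 passed and 12 were positive (median 0.14). The lowest p were those of the sterol transporter genes Abcg5 (0.42, SE 0.15, adjusted p = 0.27) and Abcg8 (0.29, SE 0.14, adjusted p = 0.46). These lists had 7, 2 and 1 genes with an unadjusted p under 0.05, a level reached by 11.7% of all tested genes.

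In the list of ROR, REV-ERB and clock genes 0 of 21 passed and 15 were negative (median -0.09), with 1 unadjusted p under 0.05, that of Cyp7b1. Its next gene was Cyp8b1, the sterol hydroxylase of cholic acid synthesis (-0.31, SE 0.15, adjusted p = 0.44). The summed level of the 21 genes was 2990 to 3600 CPM in WT and 2520 to 2870 CPM in LKO livers, of which G6pc made up 20%.

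**Figure D5:**
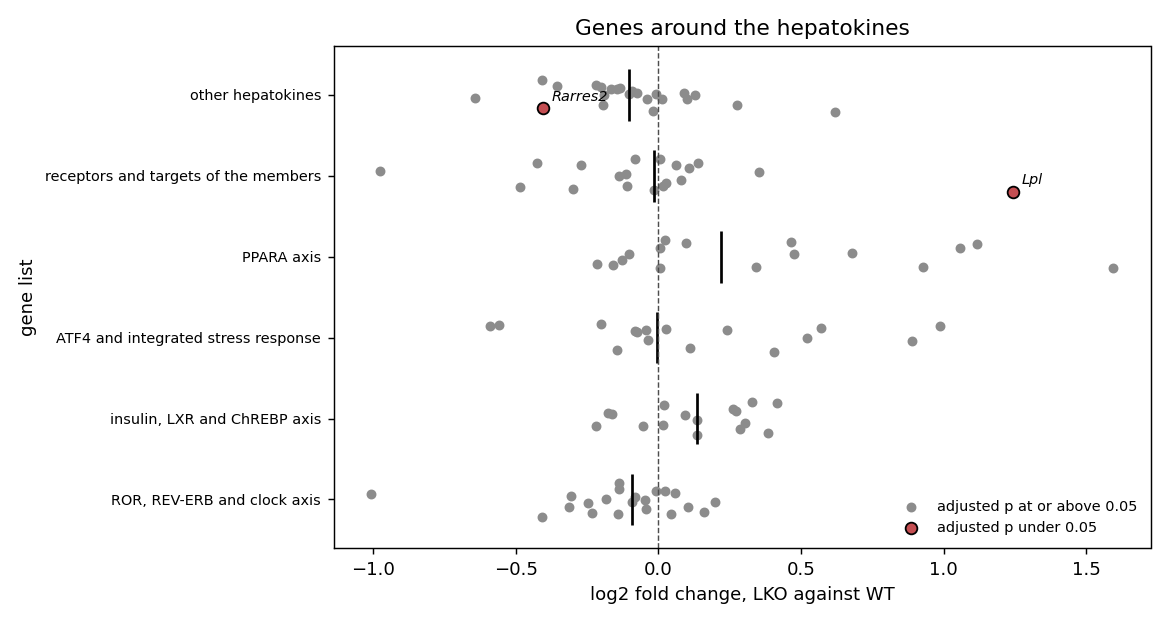
Log2 fold change of LKO against WT (6 livers each) for every tested gene of 6 lists around the hepatokines, with a bar at each list's median and genes past an adjusted p of 0.05 in red. Of all genes shown, Rarres2 (-0.41) and Lpl (1.24) passed, and the medians lie between -0.10 and 0.22.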

How the data were processed

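Liver mRNA of 6 WT and 6 LKO mice was sequenced in 12 libraries, and groups follow the genotype label, with KAPA mRNA HyperPrep libraries on a HiSeq4000. Per the submitters' processing notes, FastQC 0.11.15, Trimmomatic 0.36, HISAT2 2.1.0 and HTSeq 0.6.1 were used on GRCm38.p6. The authors deposited raw counts per Ensembl gene, with no normalization or filter. Symbols, positions and exon lengths came from GENCODE M21 (GRCm38), which named 54079 of 54232 identifiers.

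As in the study's methods, a gene had to exceed 2 reads in 6 or more livers. After TMM scaling, the 17509 genes left were fitted in edgeR 4.0.16 (R 4.3.3, quasi-likelihood) on genotype alone, and p-values were adjusted over all of them (Benjamini-Hochberg). Log2 CPM used a prior count of 0.5. Alternatives were RLE scaling, TMM without the 20 most abundant genes, no filter, at least 10 reads in every liver, limma 3.58.1 voom (the study's test), DESeq2 1.42.0, a replicate block and leaving out each liver. The fits were tested on simulated data. Total-count scaling of Enho was added after the data were seen.

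The members, lists, markers and motifs were chosen with earlier results of these data known. Named were all members, genes overlapping them, the 5 tested genes on each side of Enho, the 5 most and 5 least correlated with Enho, and in each list the called genes and the next 2 by p. Gfral and the marker genes named were chosen after their values were seen. Sequences are RefSeq's. No molecular identifiers are described for the libraries, so reads are not independent molecules and depth describes counting error alone.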

Additional observations from a re-analysis of the deposited data

Results flagged for a closer look

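For the 9 hepatokines, Marchf6 and the total count in each genotype, which makes 22 groups of 6 livers, the highest and the lowest liver were compared with the nearest of the others by Dixon's ratio, for which chance alone flags about 1 group in 20, or 1.1 of the 22. LKO liver 5 stood apart in 2 of them. Its Ahsg was the lowest of the LKO livers, at 5412 CPM with the next at 6499 CPM, a gap of 0.643 of the group's range. Its Inhbe was the highest, at 154.8 CPM with the next at 91.1 CPM, a gap of 0.664 of the range. Without this liver the log2 fold change was -0.31 for Inhbe.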

How the results depend on the processing

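No log2 fold change of the 9 hepatokines moved by more than the spread between replicates in any of 19 alternatives. In 12 of these a liver was left out, which can hardly shift a group mean by the whole spread between single livers. The comparison therefore cannot show that the values were stable. Over those 12 fits Gdf15 ran from 0.17 to 0.83, beside 0.62 with all livers. Angptl8 ran from -0.60 to -0.10, beside -0.42. Of the 9, Angptl4 and Inhbe changed sign, each in 1 alternative, to 0.02 without WT liver 3 and to 0.01 without LKO liver 2. The number of called genes was 75, and became 114 without a filter on low counts and 351 in DESeq2. Leaving out each liver gave 38 to 132, with 132 without WT liver 3 and 38 without WT liver 5. Among receptors and targets the count of 1 became 2 without a filter (with Fgfr1), 4 in DESeq2 (with Fgfr1, Fgfr4 and Irs1) and 0 to 2 on leaving out a liver. Among other hepatokines the count of 1 became 2 in DESeq2 (with Selenop) and 0 to 1 on leaving out a liver, and in the ROR, REV-ERB and clock list the count of 0 became 0 to 1. The cause was not tested. No pair of hepatokines passed the adjusted correlation test in any of 14 alternatives.

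Replicate numbers belong to different mice. The deviations of same-numbered livers correlated at 0.115, 0.135, -0.0649, 0.104, 0.0403 and 0.106 for numbers 1 to 6, and 5 of 12 livers correlated best with their own number. Since 2 of the 6 pairs were under 0.1 and no label ties a number to a litter or batch, the numbers were not taken to pair the livers. Each liver was set against 6 of the other genotype, and whether 5 of 12 is more than chance gives was not tested. With the replicate block 97 genes were called, 60 of them among the 75, and 2 receptors and targets (Lpl and Irs1).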

Other observations

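Each hepatokine was also set against the mean log2 CPM of each of the 6 lists over 12 livers with group means removed, which was chosen after seeing the data and has 54 relations. None passed a permutation test after Benjamini-Hochberg adjustment, with a lowest adjusted p of 0.171, reached by Ahsg (r = 0.787, permutation p = 0.00333, and rho = 0.783, permutation p = 0.00339) and Angptl4 (r = 0.792, permutation p = 0.00632, and rho = 0.818, permutation p = 0.00506) with the other hepatokines. Without LKO liver 5 and WT liver 4 these r were 0.737 and 0.701. Enho had r = -0.700 with the PPARA list (permutation p = 0.0183, adjusted p = 0.224; rho = -0.664, permutation p = 0.0310), which became -0.226 without WT liver 3 and LKO liver 5, so the relation rests on those livers.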
